A study of Mus musculus with 6 samples.

Results

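Granzymes, perforin and the proteins packed with them make up the cytotoxic granule, and 10 of their genes are described here in regulatory T cells (Treg cells) that overexpress a microRNA. The genes were chosen by name, from a list of granzymes (Gzma, Gzmb, Gzmk), the pore former Prf1, the granule proteins Nkg7 and Srgn, the cystatin Cst7, the cathepsin Ctsw and the serpins Serpinb9 and Serpinb6b. They are 10 of 24453 gene symbols in the table, each has 1 transcript there, and all 10 passed the filter on low values that left 13621 genes for testing. RNA came from CD4+Foxp3+ cells that were sorted from healthy female C57BL/6 mice. The control group, WT, carries the genotype label WT Tg, a wording that the labels do not explain. The other group, miR-27 Tg, comes from mice with miR-27a overexpression restricted to Treg cells, which the series title names Foxp3cre het. Foxp3 is on the X chromosome, so in a heterozygous female only part of the Treg cells use the allele that carries Cre, and the labels do not say whether the sort selected those cells. Each group has 3 libraries, numbered 1 to 3, and nothing in the labels says that they come from separate mice, so p-values measure the spread between libraries, which may be technical.

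Granule killing works by delivery. Perforin makes pores in the membrane of a target cell, and granzymes, which are serine proteases, enter through them and cleave proteins of the target. Inside the killer cell, serglycin holds the proteases in the granule, cathepsins activate them, cystatin F restrains the cathepsins, and serpins in the cytosol block protease that leaks out. CD8 T cells and natural killer cells are the best known users of this machinery, and activated Treg cells use granzyme B and perforin against other lymphocytes as one of several means of suppression. MicroRNAs of the miR-27 family lower messenger RNAs through short matches to their seed, bases 2 to 8.

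The mature sequences of the overexpressed microRNA and its close relative are shown, from RefSeq (GRCm38.p6), because the seed, in capitals, is what is searched for in the granule genes. They lie at chr8:84208727-84208747 and chr13:63300760-63300780, both on the plus strand. The forms of the family share the seed and differ at 1 position, counted from the 5′ end (C19U from miR-27a to miR-27b).
miR-27a-3p: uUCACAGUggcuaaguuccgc
miR-27b-3p: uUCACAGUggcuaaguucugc

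The libraries hold between 37700000 and 42100000 counted reads (WT) or between 34400000 and 38100000 (miR-27 Tg). Levels are in RPKM, reads per kilobase of transcript and per 10000000 counted reads, and are comparable between genes because they are per length. The overexpressed locus, Mir27a (NR_029746), had 24.7 to 38.4 RPKM in WT, against 7448 to 8919 in miR-27 Tg, so every library matched its label. Differences are miR-27 Tg minus WT of log2(RPKM + 1) values, so changes of low genes come out too small, and were tested with limma, adjusted over all 13621 genes, at a threshold of 0.05. The 7 Treg markers, 0 of which passed the test (2 at an unadjusted p under 0.05 by limma), summed to 10005 to 10703 RPKM in WT and 8932 to 9434 in the other group, with Foxp3 at 764 ± 89.9 and 836 ± 104 RPKM (SD, n = 3). That sum was lower in every miR-27 Tg library than in any WT library, but Ctla4, at 3436 ± 324 and 2335 ± 234 RPKM, weighs heavily in it. Of the 7 differences 4 were below 0 and 3 above, and Cd4 was higher in every miR-27 Tg library. Ctla4, Cd4 and Cd3e had differences of -0.56, 0.18 and -0.20 (adjusted p = 0.0868, 0.460 and 0.577 by limma). Ctla4 and Ikzf2 are the 2 at an unadjusted p under 0.05. Ikzf2, singled out after its values were seen, had 585 ± 153 and 404 ± 51.8 RPKM (difference -0.51, adjusted p = 0.290 by limma). The labels give no organ, age, batch or date.

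Of the 10 granule genes 3 fell in miR-27 Tg, namely Gzmb, Cst7 and Nkg7. None rose by limma, and at an unadjusted p under 0.05 there were 5, all lower, which adds Ctsw and Srgn. Across all genes tested, 0.653% fell and 0.374% rose, and 13.0% had an unadjusted p under 0.05. The lowest WT library was above the highest miR-27 Tg library for those same 5 genes, against 11.6% of all genes tested (6.84% the other way round), and the groups overlapped for the other 5. With 1 library left out, 0 to 2 of the 10 passed, and 0 without WT replicate 3 or without miR-27 Tg replicate 3, with 6 at an unadjusted p under 0.05 in each of those fits. The median difference of the 10 was -0.31, against -0.01 for all genes tested. These counts describe a list that was put together with results of these data known. The RNA of a sorted population is an average, so fewer cells that hold a transcript and less of it per cell cannot be told apart.

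**Figure D1:**
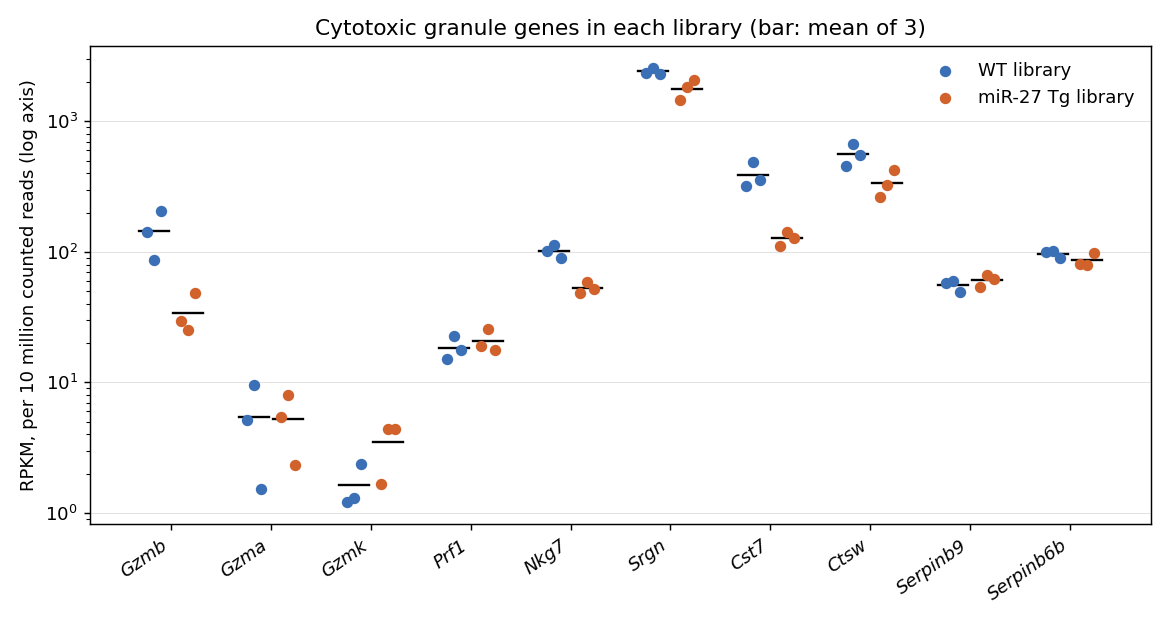
Each point is 1 library, WT in blue and miR-27 Tg in orange, black bars are means of 3, and the vertical axis is RPKM on a log scale. The groups are apart for Gzmb, Nkg7, Srgn, Cst7 and Ctsw, and intermingle for the other 5 genes.

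The promoters of the 3 genes that fell, and that of Prf1, which shares the granule but did not pass the test, are shown so that the sequence next to each start can be read beside the values. They are RefSeq windows of GRCm38.p6, from 250 bases before to 50 after the annotated start, with capitals on matches to a Runx core (TGTGGT, or ACCACA on the other strand), a T-box half-site (GTGTGA or TCACAC), an AP-1 site (TGANTCA) and an Ets site (CAGGAAG or CTTCCTG). No match overlaps another. The windows are chr14:56262285-56262584 on the minus strand for Gzmb, and on the plus strand chr2:150570165-150570464 for Cst7, chr7:43436888-43437187 for Nkg7 and chr10:61297586-61297885 for Prf1.
Gzmb: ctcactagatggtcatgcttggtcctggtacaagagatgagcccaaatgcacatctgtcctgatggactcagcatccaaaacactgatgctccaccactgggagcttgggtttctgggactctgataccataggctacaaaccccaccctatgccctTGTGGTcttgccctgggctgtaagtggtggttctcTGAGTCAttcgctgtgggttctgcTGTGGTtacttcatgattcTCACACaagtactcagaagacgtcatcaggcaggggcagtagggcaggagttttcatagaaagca
Cst7: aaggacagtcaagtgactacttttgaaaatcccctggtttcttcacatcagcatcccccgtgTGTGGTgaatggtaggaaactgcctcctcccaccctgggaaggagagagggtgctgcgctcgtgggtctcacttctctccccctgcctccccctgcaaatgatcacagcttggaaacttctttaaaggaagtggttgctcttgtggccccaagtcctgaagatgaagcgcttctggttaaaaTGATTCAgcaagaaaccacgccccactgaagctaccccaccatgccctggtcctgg
Nkg7: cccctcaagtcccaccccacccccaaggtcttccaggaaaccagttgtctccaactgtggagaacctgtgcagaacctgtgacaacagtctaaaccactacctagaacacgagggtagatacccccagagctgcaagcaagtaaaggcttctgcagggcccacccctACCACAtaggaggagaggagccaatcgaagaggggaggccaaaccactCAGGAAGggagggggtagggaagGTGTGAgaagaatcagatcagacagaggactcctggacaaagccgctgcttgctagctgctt
Prf1: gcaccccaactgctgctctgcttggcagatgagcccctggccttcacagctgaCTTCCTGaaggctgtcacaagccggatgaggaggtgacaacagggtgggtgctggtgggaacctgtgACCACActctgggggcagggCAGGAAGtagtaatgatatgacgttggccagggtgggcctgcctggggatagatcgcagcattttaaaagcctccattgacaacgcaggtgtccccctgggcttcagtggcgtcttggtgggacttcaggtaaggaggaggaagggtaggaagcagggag

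The Gzmb window holds 2 Runx matches, 93 and 34 bases before the start, with an AP-1 match at 58 and a T-box match at 15. RefSeq places that start 74 bases upstream of the transcript in the deposited table. The Cst7 window has a Runx match at 188 bases and an AP-1 match at 6, and the Nkg7 window has Runx, Ets and T-box matches at 83, 35 and 12. Prf1 has a Runx match at 130 bases and Ets matches at 197 and 110. Of the 9 members with a promoter in the reference table (Ctsw has none), 7 hold a Runx match, 3 a T-box match, 2 an AP-1 match and 3 an Ets match. Among all 32817 windows of that length the shares are 16.8%, 14.5%, 7.81% and 13.3%. The 7 members with a Runx core include Prf1, Gzma and Serpinb9, whose groups overlap, as well as the 3 genes that fell. A match is a description of the letters and shows no binding.

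Gzmb encodes granzyme B, the protease best known for starting apoptosis in target cells. Its transcript NM_013542 (mm10 chromosome 14, 56258858 to 56262260, minus strand, 5 exons) had 142, 87.0 and 207 RPKM in the WT libraries 1 to 3, against 29.6, 25.1 and 48.0 in the miR-27 Tg libraries. Every miR-27 Tg library was below every WT library, although WT itself ranged 2.38-fold. The mean went from 145 ± 60.3 to 34.3 ± 12.1 RPKM, a 4.24-fold lower level (log2 difference -2.02, SE 0.33, 95% interval -2.79 to -1.25, adjusted p = 0.0395 by limma). Depth was ample for it, with 482 to 1101 reads per WT library and 122 to 233 per miR-27 Tg library. The call depends on single libraries: it held without WT replicate 2 (adjusted p = 0.0259) and ended without any one of the other 5, with adjusted p of 0.0804 to 0.115 and differences of -2.28 to -1.72. It also ended without the intensity trend (adjusted p = 0.0720) and without the filter on low values (0.0802).

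Gzma and Gzmk, neighbours on chromosome 13 that encode a tryptase of broad reach and a protease typical of memory T cells, were near the bottom of the range. Gzma (NM_010370, 113093827 to 113100981) had 5.19, 9.63 and 1.52 RPKM in WT, against 5.43, 8.0 and 2.33 in miR-27 Tg, which is 5 to 33 reads per library. These values interleave completely, and their spread within WT is 6.32-fold. The difference of 0.07 (adjusted p = 0.978 by limma) has a 95% interval of -1.20 to 1.34, which does not leave out a change of 2-fold either way. Gzmk (NM_008196, 113171874 to 113180897) had 1.21, 1.29 and 2.36 RPKM in WT, against 1.67, 4.43 and 4.43 in miR-27 Tg, from 4 to 12 reads. Its interval ran from -0.07 to 1.54 (difference 0.74, adjusted p = 0.432), and the lowest miR-27 Tg library lies inside the WT range.

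Of the 7 other granzymes of the mouse 2 passed the filter and 0 passed the test (0 at an unadjusted p under 0.05 by limma). Gzmc, a less studied granzyme, had 7.85 ± 1.92 and 11.4 ± 3.93 RPKM (log2 difference 0.46, adjusted p = 0.595). It sits in the same cluster on chromosome 14 as Gzmb, and the labels and headers do not say how reads with several matches were counted. Gzmm, a protease of natural killer cells, had 6.60 ± 1.10 and 8.94 ± 0.139 RPKM (0.40, adjusted p = 0.414). Gzmd, Gzme, Gzmg and Gzmn were listed at 0 in all 6 libraries, and Gzmf had at most 2 reads. Summed over all 10 granzyme genes, the level was 159.8, 115 and 227 RPKM in WT, against 52.6, 59.8 and 78.4 in miR-27 Tg. Gzmb made up 88.8%, 75.8% and 91.4% of that sum in WT, against 56.3%, 42.0% and 61.3% in miR-27 Tg. The granzyme pool of WT was thus mostly Gzmb in each library, and in miR-27 Tg Gzmb was the largest component of a smaller pool, with Gzmc at 13.4% to 20.9% and Gzmm at 11.3% to 16.8%.

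Prf1 encodes perforin, without which granzymes do not enter a target cell. The transcript NM_011073 (chromosome 10, 61297836 to 61304263, plus strand) had 15.2, 22.7 and 17.6 RPKM in WT, against 19.1, 25.5 and 17.7 in miR-27 Tg. The groups lie on top of each other, at 18.5 ± 3.83 and 20.8 ± 4.16 RPKM (log2 difference 0.16, 95% interval -0.30 to 0.62, adjusted p = 0.817 by limma). That interval leaves out the 4.24-fold drop of Gzmb, and reads were 125 to 183 per library. Within a library the Gzmb level was 9.34, 3.83 and 11.8 times that of Prf1 in WT, and 1.55, 0.986 and 2.71 times in miR-27 Tg, so the ratio was lower in every miR-27 Tg library. An exact permutation test of the log2 ratio gave p = 0.1, two-sided, the smallest that 3 against 3 libraries allow, and it is the same after adjustment over 4 ratios that were picked after their values were seen.

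**Figure D2:**
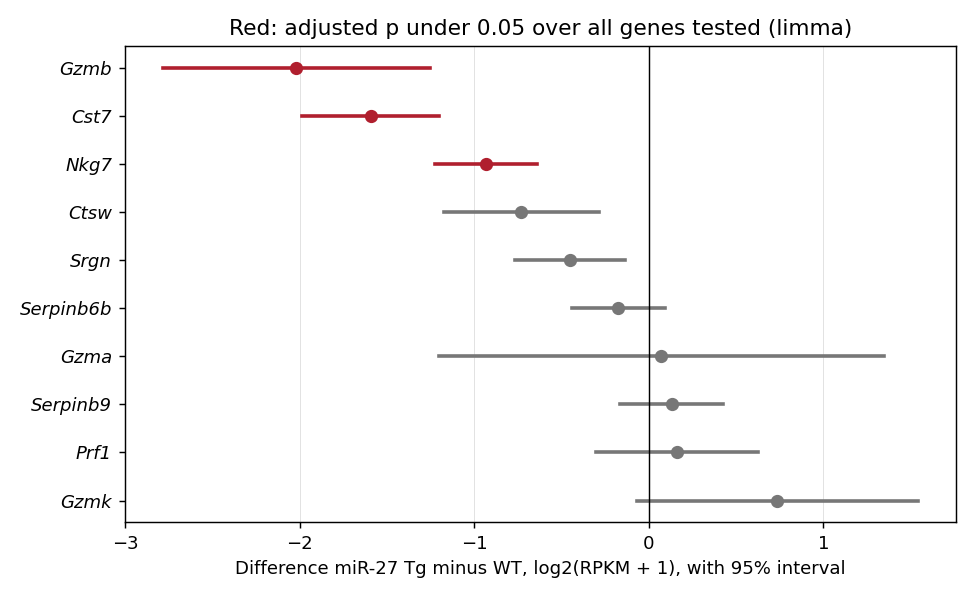
The horizontal axis is the difference miR-27 Tg minus WT in log2(RPKM + 1), points are estimates and bars 95% intervals from limma, with red for adjusted p under 0.05. Gzmb, Cst7 and Nkg7 are red and left of 0, the bars of Ctsw and Srgn are left of 0 but grey, and the other 5 bars cross 0.

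Cst7 encodes cystatin F, which is secreted or sent to granules and there inhibits cathepsins, among them cathepsin C, the activator of granzymes. Its transcript NM_009977 (chromosome 2, 150570415 to 150578944, plus strand) had 318, 493 and 357 RPKM in WT, against 111, 143 and 127 in miR-27 Tg. The gap between the groups is wide: the lowest WT library was more than 2 times the highest miR-27 Tg library. From 389 ± 91.8 to 127 ± 15.9 RPKM the level was 3.07-fold lower (log2 difference -1.59, SE 0.17, 95% interval -1.99 to -1.20, adjusted p = 0.0134 by limma). Of the 3 calls this one withstood the most settings. It ended without WT replicate 3 (adjusted p = 0.0508) or else miR-27 Tg replicate 3 (0.0706), and held in the other 4 fits with 1 library left out.

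Ctsw encodes cathepsin W, a papain-like protease found mainly in CD8 T and natural killer cells. NM_009985 (chromosome 19, 5465043 to 5468507, minus strand) had 457, 674 and 549 RPKM in WT, against 266, 328 and 422 in miR-27 Tg. All miR-27 Tg values were below all WT values, but only narrowly, since miR-27 Tg replicate 3 came close to WT replicate 1. The difference of -0.73 (559.8 ± 109 against 339 ± 78.9 RPKM, 95% interval -1.17 to -0.29) did not pass (adjusted p = 0.145 by limma). Cst7 was 0.697, 0.732 and 0.650 of the Ctsw level in WT, against 0.416, 0.435 and 0.301 in miR-27 Tg, lower in each of the latter libraries (exact permutation p = 0.1, the smallest possible). This ratio too was picked after its values were seen.

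Nkg7 encodes a small membrane protein of the granule that is needed for its release. NM_024253 (chromosome 7, 43437138 to 43438246, plus strand) had 103, 114 and 90.4 RPKM in WT, against 48.2, 59.0 and 51.8 in miR-27 Tg. Its libraries were the most tightly grouped of the 3 genes that fell, within 1.26-fold in WT and 1.23-fold in miR-27 Tg. The level was 1.93-fold lower (log2 difference -0.93, SE 0.13, 95% interval -1.22 to -0.64, adjusted p = 0.0257 by limma). It passed without miR-27 Tg replicate 2 (adjusted p = 0.0463) and not without any one of the other 5 libraries, with adjusted p from 0.0554 (without WT replicate 2) to 0.0988 (without miR-27 Tg replicate 3).

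Srgn encodes serglycin, the proteoglycan core to which granzymes and perforin bind, and was by far the most abundant member. NM_011157 (chromosome 10, 62494428 to 62507755, minus strand) had 2359, 2583 and 2312 RPKM in WT, against 1461, 1824 and 2065 in miR-27 Tg. The ranges do not meet, but miR-27 Tg varies 1.41-fold and WT 1.12-fold. The difference of -0.45 (2418 ± 145 against 1783 ± 304 RPKM, 95% interval -0.77 to -0.14) did not pass (adjusted p = 0.206 by limma). The Gzmb level was 0.0602, 0.0337 and 0.0897 times that of Srgn in WT, against 0.0203, 0.0138 and 0.0232 in miR-27 Tg. The exact permutation p was 0.1, the smallest possible, for a ratio picked after its values were seen. Serglycin is made by most blood cells, myeloid cells included, which are described further down.

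The serpins that protect a cell from its own granzymes did not pass the test, and their intervals leave out a drop as large as that of Gzmb. Serpinb9, the inhibitor of granzyme B (NM_009256, chromosome 13, 33004541 to 33017955), had 57.5, 59.5 and 49.1 RPKM in WT, against 53.8, 66.9 and 61.8 in miR-27 Tg. Serpinb6b, its neighbour in the same serpin cluster and a described inhibitor of granzyme A (NM_011454, 32965513 to 32979037), had 100.1, 102 and 89.2 RPKM in WT, against 81.1, 79.6 and 97.9 in miR-27 Tg. Both sets overlap between groups. The differences were 0.13 (95% interval -0.16 to 0.43, adjusted p = 0.748) for Serpinb9 and -0.17 (-0.44 to 0.09, adjusted p = 0.614) for Serpinb6b by limma. The Gzmb level was 2.47, 1.46 and 4.22 times that of Serpinb9 in WT, and 0.551, 0.376 and 0.777 times in miR-27 Tg. Thus the protease transcript exceeded that of its inhibitor in each WT library and was below it in each miR-27 Tg library. The exact permutation p was 0.1, two-sided, the smallest possible, for a ratio picked after its values were seen.

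By level per length, WT libraries ordered as Srgn, Ctsw, Cst7, Gzmb, Nkg7, Serpinb6b, Serpinb9, Prf1, Gzma and Gzmk. Neighbours whose libraries overlap there are Ctsw with Cst7, Gzmb with Nkg7, Nkg7 with Serpinb6b, and Gzma with Gzmk. In miR-27 Tg the order was Srgn, Ctsw, Cst7, Serpinb6b, Serpinb9, Nkg7, Gzmb, Prf1, Gzma and Gzmk, with overlaps of Serpinb9 with Nkg7, of Gzmb with Prf1 and of Gzma with Gzmk. Gzmb went from the fourth place to the seventh, next to Prf1. WT replicate 2 was the highest WT library for 8 of the 10 genes, Gzmb and Gzmk being the exceptions, and for Gzmb it was the lowest. miR-27 Tg replicate 1 was the lowest of its group for 6 genes.

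**Figure D3:**
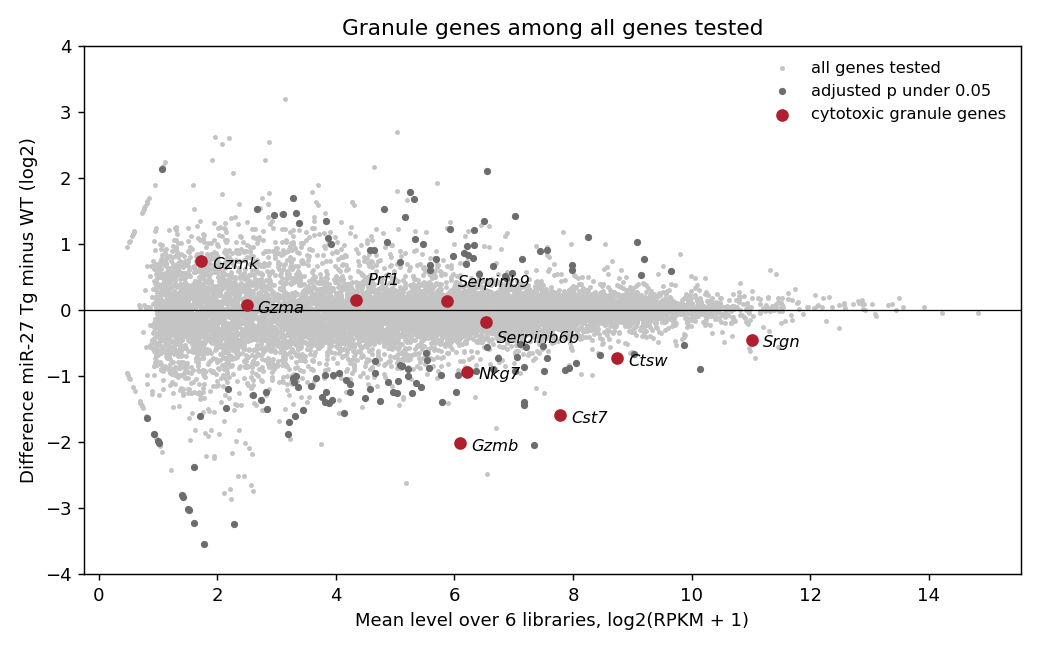
Every gene tested is a grey point, by mean log2(RPKM + 1) over 6 libraries and by the difference miR-27 Tg minus WT, darker where adjusted p is under 0.05, with the granule genes in red and 1 gene, Mir27a, beyond the drawn range of 4. Gzmb at -2.02 and Cst7 at -1.59 are at the lower edge of genes of like level, while Prf1, Serpinb9 and Gzma are within the body of the cloud.

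The other genes of the pathway were taken from lists of known members. None of the next 5 lists had a member past the threshold by limma, and the counts at an unadjusted p under 0.05 are given with each. Of 13 genes for the granule lumen and protease activation 0 also had an unadjusted p under 0.05, with a median difference of 0.09. Cathepsin C (Ctsc), which trims granzymes to their active form, had 59.4 ± 2.07 and 59.9 ± 12.1 RPKM (adjusted p = 0.995). Ctss, Calr and Ctsd were the most abundant of them, with differences of -0.12, 0.06 and 0.05 (adjusted p = 0.808, 0.852 and 0.917).

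Of 18 genes for granule transport and release 16 were tested and 2 had an unadjusted p under 0.05, 1 lower and 1 higher, with a median of -0.02. Unc13d, the priming factor of granules, had a difference of -0.08 (adjusted p = 0.762), and the vesicle fusion proteins Vamp2 and Vamp8 had -0.10 and -0.01 (adjusted p = 0.744 and 0.990), with Vamp8 at 0.03 under median centring. Stx11, a syntaxin required for granule fusion, and Lyst, a regulator of granule size, are those 2 and were singled out after their values were seen. Lyst was higher in every miR-27 Tg library, at 58.9 ± 4.50 and 74.1 ± 2.38 RPKM (log2 difference 0.33, 95% interval 0.09 to 0.57, adjusted p = 0.222 by limma). Stx11 had 94.7, 111 and 87.5 RPKM in WT, against 50.1, 65.9 and 58.3 in miR-27 Tg, below WT in every library (log2 difference -0.74, 95% interval -1.06 to -0.42, adjusted p = 0.0575). The adjusted p of Stx11 was under 0.05 in 4 of 9 fits that kept all libraries and in none of 6 with 1 library left out.

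Among 21 other serpins and cystatins 7 were tested, 4 reached an unadjusted p below 0.05, and all 7 differences were below 0, with a median of -0.83. Of all 13621 genes tested, 7208 had a difference below 0. The median rests on few genes, since 14 were too low to test and 8 of these were listed at 0 in all libraries. It is the value of Stfa3, which had 3 to 28 reads per library and overlapping groups (adjusted p = 0.603 by limma). Serpina3g, a serpin of activated T cells that inhibits cathepsins, had 255, 324 and 267 RPKM in WT, against 70.2, 143 and 160 in miR-27 Tg (difference -1.25, adjusted p = 0.10). Leaving out miR-27 Tg replicate 1 brought the adjusted p to 0.0497 and the difference to -0.88. Serpina3f spans part of the same stretch in the deposited coordinates, so reads of the pair may be shared or split. Serpina3f, Serpinb1a and Serpinb6a, also noticed by their values, had no overlap between groups either, with differences of -1.32, -0.85 and -0.41 and adjusted p of 0.245, 0.250 and 0.153 by limma. That makes 4 of 7 without overlap, all lower in miR-27 Tg, against 11.6% of all genes tested. The cystatins Cst3 and Cstb, which like cystatin F inhibit cathepsins, had differences of -0.02 and -0.09 (adjusted p = 0.979 and 0.849), and that of Cst3 turned to 0.01 with median centring.

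Death ligands and receptors, the other killing route of lymphocytes, had 0 of 9 past the threshold and 3 at an unadjusted p under 0.05, with a median of -0.17. Tnfrsf1b, the TNF receptor of Treg cells, had 430.3 ± 45.5 and 274 ± 41.5 RPKM (difference -0.65, adjusted p = 0.0683). It passed in 3 of 9 fits that kept all libraries and in 0 of 6 with 1 left out, where adjusted p was 0.0635 to 0.202. Fasl and Tnfsf10 are the others of those 3 and were singled out after their values were seen. They had differences of -0.66 and -0.39 (adjusted p = 0.144 and 0.353). The groups did not overlap for these 3 genes, all lower in miR-27 Tg, against 11.6% of all genes tested. They overlapped for the other 6 of the list. Ltb and Lta had differences of -0.01 (0.02 with median centring) and -0.23 (adjusted p = 0.981 and 0.640).

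Of 21 regulators of cytotoxic and effector programmes 0 passed and 5 reached an unadjusted p below 0.05, 4 lower and 1 higher, with a median of -0.08. T-bet (Tbx21), Eomes and Runx3, factors that drive granule genes in CD8 T cells, had 11.2 ± 3.52, 3.69 ± 0.145 and 74.9 ± 18.4 RPKM in WT, against 8.93 ± 2.26, 5.17 ± 2.49 and 78.0 ± 15.9 in miR-27 Tg. Their differences of -0.29, 0.32 and 0.07 (for Runx3 -0.05 with array weights) had intervals that include 0 (adjusted p = 0.718, 0.737 and 0.941). Prdm1, which encodes the effector regulator Blimp-1, had 40.2, 29.4 and 42.3 RPKM in WT, against 16.2, 22.9 and 23.1 in miR-27 Tg (difference -0.82, adjusted p = 0.118). Bhlhe40 had a difference of -0.59 (adjusted p = 0.214). For both, miR-27 Tg was below WT in every library. Nfil3, Stat4 and Myb are the other 3 of those 5, with differences of -0.84, -0.27 and 0.38 (adjusted p = 0.214, 0.290 and 0.140), and Nfil3 came to 0.0306 without WT replicate 2. All 5 were singled out after their values were seen. Tcf7, Klf2 and Lef1, the most abundant of the list and typical of resting T cells, had differences of 0.19, -0.08 and 0.15 (adjusted p = 0.770, 0.935 and 0.820).

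**Figure D4:**
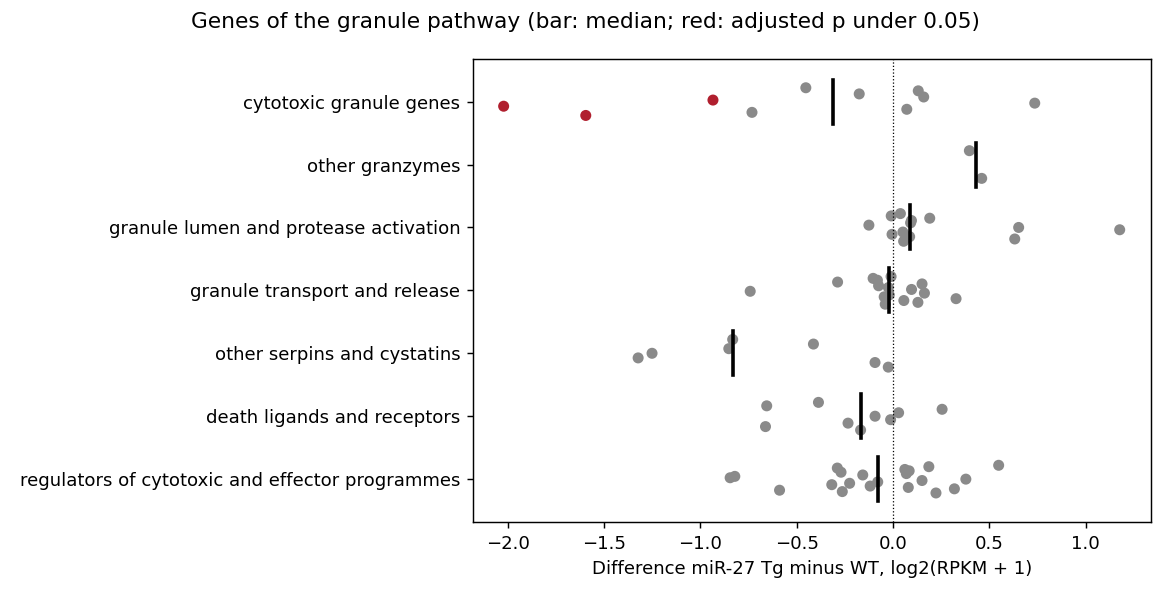
Each point is a tested gene of 1 list, placed by its difference miR-27 Tg minus WT in log2(RPKM + 1), black bars are list medians and red marks adjusted p under 0.05. The 3 red points, all among the cytotoxic granule genes, lie at -2.02, -1.59 and -0.93, and the bars for granule lumen and for transport stand at 0.09 and -0.02.

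Other cells that a sort can carry along also hold granule proteins. Of 16 markers of CD8 T and natural killer cells 9 were tested, 1 fell and 0 rose (6 at an unadjusted p under 0.05, 4 lower and 2 higher), with a median of -0.02. Xcl1, a chemokine that activated T cells make too, fell by 1.41 on the log2 scale (adjusted p = 0.0238 by limma), a call that ended without WT replicate 1 (0.0793), WT replicate 3 (0.0818), miR-27 Tg replicate 3 (0.0766) or the filter (0.0558). Tyrobp and Cd8b1, the most abundant of the list, had differences of 1.16 and 0.72 (adjusted p = 0.624 and 0.258), and Cd8b1 was higher in every miR-27 Tg library. The receptor Ncr1, which defines natural killer cells, was at 0 to 0.730 RPKM in WT, against 0.799 to 1.62 in miR-27 Tg, and Klra4, Klra8 and Klra9 were at most 0.480 in any library. Cd8a had 9.84 to 19.7 and 9.76 to 26.3 RPKM. The others of the 6, noticed by their values, were Ccl5, Klrb1c and Crtam at -0.82, -1.05 and -0.76 (adjusted p = 0.0726, 0.140 and 0.300), and the natural killer receptor chain Klrd1 at 1.41 (adjusted p = 0.269). Summed over the 16 markers the level was 240.03 to 391 RPKM in WT, against 228 to 719 in miR-27 Tg. Tyrobp alone had 32.3, 86.4 and 167 RPKM of it in WT, against 51.7, 415 and 250 in miR-27 Tg, and so weighs heavily in the sum. Tyrobp ranks the 6 libraries in the same order as Siglech, a marker of plasmacytoid dendritic cells given below. The sum is therefore no separate measure of CD8 T and natural killer cells. The ranges of the sum overlap, with miR-27 Tg replicate 1 the lowest of the 6 libraries and replicate 2 the highest. The part of these markers in the lower Gzmb, Cst7 and Nkg7 was not tested.

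Plasmacytoid dendritic cells can hold granzyme B, and their markers were unevenly spread over the libraries. Their 8 markers, all of them tested, summed to 484, 822 and 1035 RPKM in WT, against 703, 2261 and 1458 in miR-27 Tg, with 0 past the threshold by limma, 1 at an unadjusted p under 0.05 and a median difference of 1.21. Siglech, which defines these cells, had 14.4, 64.4 and 119 RPKM in WT, against 27.4, 330.5 and 153 in miR-27 Tg. Bst2 and Ly6d, the most abundant markers beside it, had differences of 0.77 and 1.29 (adjusted p = 0.231 and 0.552). Bst2 alone had 352, 507 and 516 RPKM of the sum in WT, and so weighs heavily in it. In miR-27 Tg it had 534, 1046 and 816. The library richest in these markers, miR-27 Tg replicate 2, had the lowest Gzmb of all 6. Within WT the order was the other way, as replicate 3 had both the highest marker sum and the highest Gzmb, 207 RPKM. Of 12 myeloid markers 11 were tested and 1, Itgam, rose (difference 1.69, adjusted p = 0.0118), 9 reached an unadjusted p below 0.05, and all 11 differences were above 0, with a median of 1.03. The call of Itgam ended without WT replicate 1 (adjusted p = 0.0511), WT replicate 3 (0.0508) or miR-27 Tg replicate 3 (0.0674). Lyz2 and Cd68, of macrophages, had differences of 1.18 and 0.54 (adjusted p = 0.305 and 0.376). The sum of the 12 was 159 to 388 RPKM in WT, against 413 to 959.6 in miR-27 Tg, higher in every miR-27 Tg library. Myeloid markers thus differ between the groups in the opposite direction to Gzmb, Cst7, Nkg7, Ctsw and Srgn, while the sums for plasmacytoid dendritic cells overlap, and the part of either in those results was not tested. The 6 B cell markers summed to 114 to 142 and 90.1 to 135 RPKM, with 0 past the threshold and 1 at an unadjusted p under 0.05 by limma. Among them Cd79b and Cd79a had differences of -0.33 and 0.23 (adjusted p = 0.454 and 0.729). Of 8 mast cell and basophil markers 3 were tested, with 0 past the threshold and 0 at an unadjusted p under 0.05 by limma. They summed to at most 22.4 RPKM in a library, and Mcpt8 was listed at 0 in all 6.

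**Figure D5:**
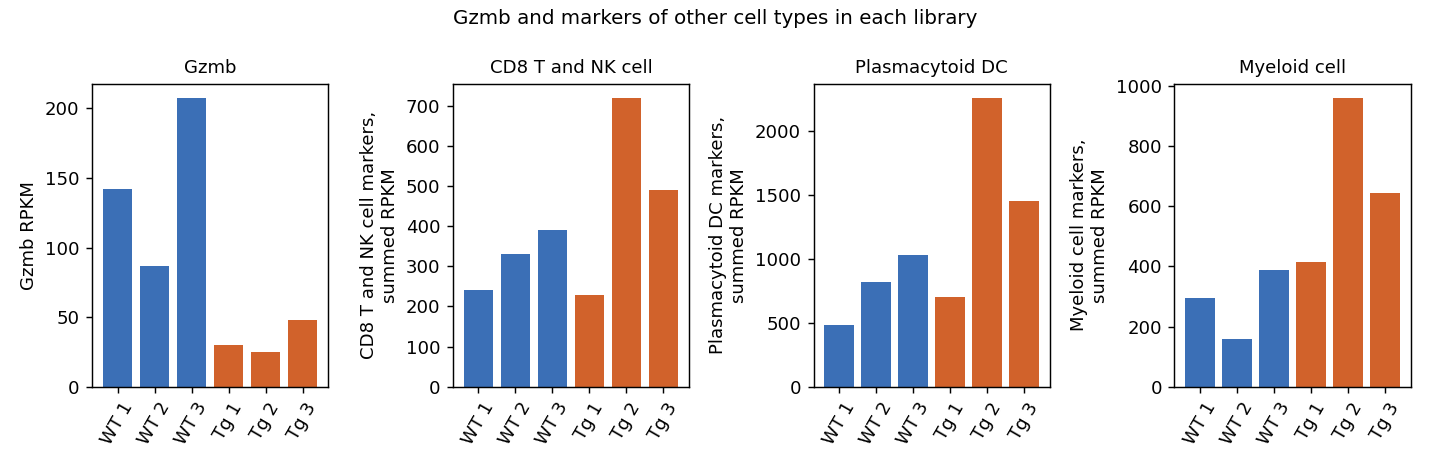
Bars give, for each library, the RPKM of Gzmb and the summed RPKM of markers of CD8 T and natural killer cells, plasmacytoid dendritic cells and myeloid cells, WT in blue and miR-27 Tg in orange. Gzmb is lowest in miR-27 Tg replicate 2, where the 3 marker sums are at their highest, 719, 2261 and 959.6. Of that 719, Tyrobp alone holds 415, and Tyrobp ranks the libraries as Siglech does, so these sums are not separate readings. Of the 2261, Bst2 alone holds 1046. Within WT, Gzmb is highest in replicate 3, where the sums are the highest of WT, 391, 1035 and 388.

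The match to the miR-27 seed, ACTGTGA, was searched in the 3′ UTRs of all 10 members in GENCODE M21 (GRCm38). Only Serpinb6b held it, 1 of 10, against 14.9% of the 12020 tested genes with a 3′ UTR that could be searched. The site is at chr13:32978866-32978872 on the plus strand, starts at base 513 of a UTR of 714 bases, is followed by an A, and is shown with its flanks, the match in capitals.
Serpinb6b: taactttaccacACTGTGAaccatcatgag
Serpinb6b, whose values are given above, did not pass the test. The 3 genes that fell, Gzmb, Cst7 and Nkg7, have no such match in UTRs of 581, 447 and 152 bases. A shorter match of 6 bases, CTGTGA, occurs in 4 members (Gzmb, Cst7, Serpinb9 and Serpinb6b), against 42.8% of the genes searched. The UTRs of the members are short, with 9 of 10 under the median of 899 bases. The absence of a match says only that these letters are not in these UTRs. In GENCODE M21 no exonic base of the transcripts checked for the 10 members is shared with another gene on either strand. Reads were counted on RefSeq transcripts, whose exons were not checked. The checked and counted transcripts differ in length for every member, and the seed search used the checked ones. For Ctsw the checked transcript is the shorter, with 1241 exonic bases against 1426 in the counted one. It is the longer for the rest, among them Prf1 (2474 against 2049), Serpinb6b (2193 against 1850) and Gzmk (1028 against 786).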

How the data were processed

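Total RNA of sorted CD4+Foxp3+ cells was sequenced as TruSeq libraries, per the labels' protocols. The authors deposited 1 table of RPKM values. HOMER counted reads in exons of mm10 RefSeq transcripts on both strands and scaled each library to 10000000 reads, per the file headers. Per the submitters' processing notes, STAR 2.2.0c was used, and the builds were mm10 and GRCm38. Low values are whole multiples of the value of 1 read (100% of 2844 to 3114 values per library, within 0.1 read, on transcripts of 200 to 4000 bases), which gave depth and read numbers. No count model was used.

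Of 34711 transcripts the one with the highest mean was kept per symbol. The 13621 symbols with a mean of at least 1 RPKM entered a limma 3.58.1 fit (R 4.3.3) of log2(RPKM + 1) (intensity trend, two-sided, Benjamini-Hochberg over all genes), after a check on simulated data. Single ratios were tested by exact permutation with scipy 1.17.1. Shares of granzymes and ratios are of RPKM.

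The members and all lists were chosen with earlier results of these data known. Genes named were all members, and from each list those past the threshold and, up to 3 in all, the most abundant, of which 1 B cell marker is not reported here. Other genes beside defining markers were singled out after their values were seen. The alternatives were other pseudocounts, no filter, no trend, array weights, a replicate block, median centring, transcripts under 200 bases left out, every transcript tested and each library left out.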

Additional observations from a re-analysis of the deposited data

How the results depend on the processing

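Of 10 members, Gzmb, Cst7 and Nkg7 were the ones called with pseudocounts of 0.1 and 5, array weights, median centring, transcripts of under 200 bases left out, every transcript tested and a replicate block, and Cst7 and Nkg7 without the filter or the trend. With 1 library left out 0 to 2 members passed by limma, 0 without WT replicate 3 or miR-27 Tg replicate 3, where 6 had an unadjusted p under 0.05 in each. The log2 differences ranged from -2.37 to -1.72 for Gzmb, -1.73 to -1.41 for Cst7 and -1.02 to -0.82 for Nkg7 over 15 alternatives. Of all genes, 140 passed, and 48 with no filter, 225 with array weights, 237 with every transcript tested and 5 to 65 with 1 library left out. Whether equal replicate numbers pair the libraries is not settled. Same-numbered deviations correlated at 0.37, 0.10 and 0.04 across genes, and WT replicates 2 and 3 correlated better with another number, at 0.15 and 0.12. Deviations from a mean of 3 libraries depend on each other, so these correlations cannot decide the question. With the replicate block 276 genes passed, among them Serpina3g, Tnfrsf1b, Stx11, Bhlhe40 and Ccl5, lower, and Cd8b1 and Bst2, higher (adjusted p of 0.0203 to 0.0332 by limma). None of these named genes passed in the main fit, while Stx11, Tnfrsf1b, Ccl5 and Serpina3g passed in some other alternative too. With each library left out in turn, the sign of small differences varied, from -0.49 to 0.55 for Gzma, -0.23 to 0.018 for Ctss, -0.050 to 0.13 for Ctsd, -0.13 to 0.10 for Vamp8, -0.17 to 0.16 for Cst3, -0.20 to 0.028 for Cstb, -0.059 to 0.037 for Ltb, -0.35 to 0.13 for Klf2, -0.028 to 0.31 for Lef1, -0.28 to 0.22 for Kit, -0.15 to 0.22 for Runx3, -0.16 to 0.085 for Ctsc and -0.66 to 0.94 for Mpo. With median centring Vamp8, Cst3, Ltb, Kit and Ctsc came to 0.027, 0.012, 0.024, 0.016 and 0.032, and with array weights Vamp8, Runx3 and Mpo to 0.0050, -0.054 and -0.037. The cause was not tested. Depth limits Gzma and Gzmk, at 4 to 33 reads per library.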

Other observations

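Granule proteins of other lineages were unevenly spread over the libraries. Transcripts of the mast cell proteases Mcpt4, Cma1 and Tpsb2 had 26, 18 and 11 reads in miR-27 Tg replicate 1, and at most 1 read in any other library. The mast cell and progenitor receptor Kit (difference -0.02, or 0.016 with median centring, adjusted p = 0.990 by limma) and the protease Cpa3 (-0.19, adjusted p = 0.798), both tested over all 6 libraries, did not pass. Mpo and Elane, the peroxidase and elastase of early neutrophil granules, had 50 and 13 reads in WT replicate 1 and 48 and 18 in miR-27 Tg replicate 1. In the other 4 libraries they had at most 2 reads each. Stfa3, a stefin of neutrophils that inhibits cathepsins, had 28, 16 and 6 reads in the WT libraries, against 14, 3 and 6. Beside Kit, Cpa3 and Mcpt4, these genes were singled out after their values were seen. Of all WT and miR-27 Tg pairs, WT replicate 1 and miR-27 Tg replicate 1, which hold nearly all reads of Mpo and Elane, had the highest correlation of deviations from the group means across tested genes, 0.37.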
